A study of Mus musculus with 12 samples.

Results

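The LPS response of the ficolin KO spleen was taken from 6 of the 12 arrays of the series, 3 of LPS challenged and 3 of naive ficolin KO mice, 1 array per mouse. The other 6 arrays held the spleens of LPS challenged and naive WT mice, again 3 of each. All mice were female C57BL/6 mice, 10 weeks old by the labels. The ficolin KO mice, naive and LPS challenged alike, lacked both ficolin genes of the mouse, Fcna and Fcnb, and were bred as a homozygous line, as were the WT mice, from heterozygous crosses. The challenge was an i.p. dose of 10 mg/kg LPS, and spleens were taken after 6 h, whereas naive mice were untreated by the labels, so that LPS and the injection itself cannot be told apart. Total RNA of spleen tissue was measured on Affymetrix Mouse Gene 2.0 ST arrays, and the values are log2 intensities of 22180 genes, each represented by the brightest of its probe sets. An array reading of a whole spleen cannot tell fewer cells of a type from less RNA per cell.

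LPS, the cell wall lipid of Gram-negative bacteria, is handed by CD14 to the receptor TLR4, which signals through the adaptors MyD88 and TRIF. The MyD88 branch activates NF-kB and AP-1 and with them cytokine and chemokine genes, and the TRIF branch leads to type I interferon and to interferon-stimulated genes. In the spleen, macrophages of the red pulp and the marginal zone meet LPS from the blood, next to the B cells and T cells of the white pulp. Ficolins are soluble lectins that bind microbial sugars and start the lectin pathway of complement.

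LPS challenge raised 936 genes (4.22% of 22180) and lowered 978 (4.41%) in ficolin KO mice at a fold-change > 2 and an adjusted p < 0.05 from limma, together 1914 DEGs (8.63%). The median fold-change was 2.78 among the raised and 2.61 among the lowered genes. More than 4-fold rises were seen for 215 genes and more than 4-fold falls for 141. At an adjusted p < 0.05 without a fold criterion, 6152 genes (27.7%) passed. Arrays of LPS challenged and naive mice did not overlap for 1907 of the 1914 DEGs, and for 39.7% of all genes. The criterion fell amid genes of nearly equal change. Qtrt1, Polr3e and Tlr9 lay just inside it and Noa1, Asxl1 and Exosc2 just outside, all with a log2 fold-change of 1.0 after rounding. Among lowered genes, Bfsp2, Metrn and Surf1 lay just inside and Cfp, Iglv1 and P3h2 just outside at -1.0.

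The 3 LPS challenged mice had similar median changes over the DEGs, which were themselves chosen on these arrays. Measured from the mean of the naive mice, the median change of the raised genes was 1.54, 1.55 and 1.39 on the log2 scale in LPS replicates 1, 2 and 3, and that of the lowered genes -1.35, -1.46 and -1.33. Each of the 936 raised genes was above the naive mean in each of the 3 mice, and each of the 978 lowered genes below it, which follows in part from the choice of DEGs. Past the 2-fold mark were 873, 895 and 789 of the raised genes in LPS replicates 1, 2 and 3, and 854, 914 and 825 of the lowered genes. Across genes, which are not independent replicates, LPS arrays correlated with each other at 0.989 to 0.991 and with naive arrays at 0.944 to 0.958. Fcna, the ficolin-A gene, was 3.98, 4.85 and 4.33 in naive and 4.36, 4.34 and 4.45 in LPS challenged ficolin KO mice, against 8.79, 8.88 and 9.38 in naive and 8.12, 7.92 and 8.21 in LPS challenged WT mice, so that the Fcna readings matched the genotype labels. Fcnb, the ficolin-B gene, lay between 3.18 and 3.69 on all 12 arrays, below the median of each array (at least 4.17), and checks no label. Cd79a, which marks the B cells of the spleen, read 12.06, 11.94 and 11.74 in naive ficolin KO mice. Cpb1, a digestive enzyme gene of the pancreas, read 12, 10.56 and 11.20, also far above the median of an array.

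**Figure D1:**
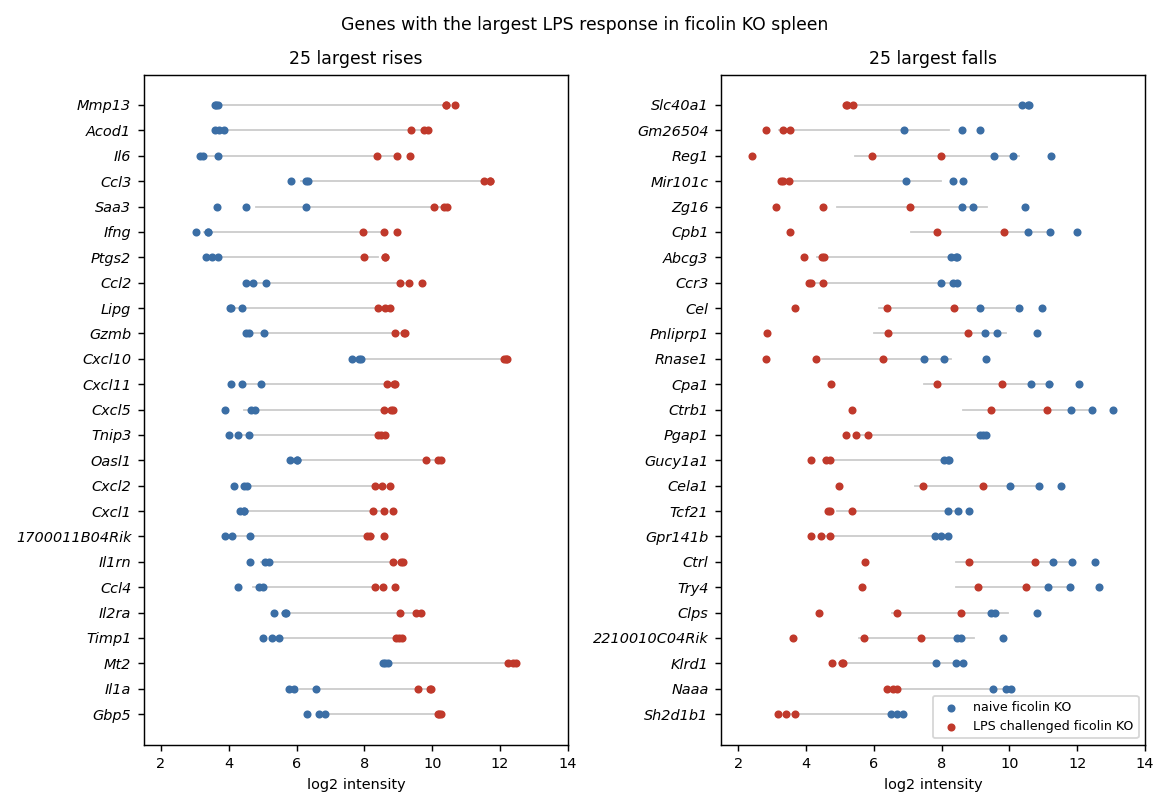
Log2 intensity (x axis) of the 25 genes with the largest rises (left) and the 25 with the largest falls (right) in LPS challenged ficolin KO mice. Each point is 1 mouse, blue for naive and red for LPS challenged ficolin KO mice, and grey lines join the means of the groups. For Mmp13, at the top left, the naive points lie between 3.59 and 3.69 and the LPS points between 10.41 and 10.68. Genes of the exocrine pancreas, such as Cpb1 and Ctrb1 on the right, have LPS points that are spread far apart.

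The largest rise was that of Mmp13, collagenase 3, a matrix metallopeptidase that cleaves fibrillar collagen. Mmp13 was 3.69, 3.63 and 3.59 in naive mice and 10.68, 10.41 and 10.41 after LPS challenge. The arrays of each group lay within a narrow range, far from those of the other, and the fold-change was 116 (log2 6.86, SE 0.15, adjusted p = 4.52e-13 from limma). Acod1, the enzyme that makes itaconate in activated macrophages, went from 3.86, 3.72 and 3.59 to 9.89, 9.38 and 9.76, a fold-change of 62.0. The naive mean of both genes lay below the median of every array, as it did for 6 of the 25 genes with the largest rises, and no detection calls were used, so that these fold-changes may be too small.

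Further genes of inflammation followed. Il6, the fever-inducing and acute phase-inducing cytokine, was 3.16, 3.24 and 3.68 in naive and 8.96, 8.38 and 9.34 in LPS challenged mice, a fold-change of 46.3. Saa3, a serum amyloid A that is made outside the liver too, was 4.50, 3.66 and 6.28 in naive mice, with replicate 3 well above the other naive mice, and 10.35, 10.43 and 10.05 after LPS. Ptgs2, the inducible cyclooxygenase COX-2, rose from 3.32, 3.52 and 3.67 to 8.62, 7.98 and 8.62. None of the groups overlapped, and LPS replicate 2 was the lowest of the LPS challenged mice for Il6 and Ptgs2 but the highest for Saa3. Lipg, the endothelial lipase, rose 21.4-fold, Timp1, an inhibitor of metallopeptidases, 13.6-fold and Mt2, a zinc-binding metallothionein, 13.3-fold.

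Chemokines, the secreted proteins that attract leukocytes, made up 8 of the 25 largest rises. Of 16 measured CXC and other chemokines 8 rose and 0 fell, with a median log2 fold-change of 1.59, against -0.0067 over all genes tested. Of 17 CC chemokines 9 rose and 1 fell (median 1.10). The 3 ligands of CXCR3, which attract activated T cells and NK cells, rose together. Cxcl10 was already bright in naive mice, at 7.91, 7.85 and 7.64, and reached 12.17, 12.21 and 12.11, a fold-change of 20.6. Cxcl11 rose 20.4-fold and Cxcl9 7.55-fold. Ligands of CXCR2, the neutrophil receptor, rose as well. Cxcl5 rose by 4.30 on the log2 scale, Cxcl2 by 4.15, Cxcl1 by 4.13 and Cxcl3 by 2.71, while Ppbp, a chemokine stored in platelets, had a log2 fold-change of -0.35 and was not called. Cx3cl1, the membrane-bound fractalkine, rose too (2.55).

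The inflammatory CC chemokines were led by Ccl3, an attractant of macrophages and other leukocytes, which went from 6.27, 6.33 and 5.83 to 11.71, 11.70 and 11.53, a fold-change of 45.4. Ccl2, the monocyte attractant, rose 24-fold from 4.73, 5.09 and 4.50 to 9.33, 9.05 and 9.70. Each LPS value of these genes lay more than 3 log2 units above each naive value. Ccl4 (3.87), Ccl7 (3.43) and Ccl12 (2.39), further attractants of monocytes and T cells, rose as well, as did Ccl11 (3.04), the eosinophil attractant eotaxin. Ccl5 (1.87), Ccl22 (1.84) and Ccl17 (1.10), attractants of T cells, rose less. Ccl6 was the chemokine that fell (-1.92). Ccl8 and Ccl20 were not called, with log2 fold-changes of 0.0033 each, and the homeostatic chemokines Cxcl12 (-0.66) and Cxcl13 (0.37), which hold lymphocytes in place in lymphoid tissue, were not called either.

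The promoter windows of 5 of the 25 genes with the largest rises are printed to show the letters that NF-kB and interferon-activated factors are known to bind. They held the most ISRE or the most kB matches among those genes, with ties settled by the larger rise. A window runs from 250 bases before to 50 bases after a RefSeq transcript start on GRCm38.p6, and 20 of the 25 genes had a window there on chromosomes used here. ISRE letters, the interferon-stimulated response element, were searched as GAAA, any 2 bases and GAAA again, the kB element by its usual consensus, the AP-1 element as TGANTCA and the GAS element, bound by STAT factors, as TTCNNNGAA, each on both strands with overlapping matches counted. Of all 32851 windows, 3.44% held an ISRE, 4.51% a kB, 7.81% an AP-1 and 8.30% a GAS match. Of the 20 genes, 4 held an ISRE, 8 a kB, 8 an AP-1 and 4 a GAS match in any of their windows. These counts are by gene and the shares above by window, so they were not compared. Windows were found for 710 of the 936 raised genes (75.9%), fewer than 80%, so shares among raised and other genes were not compared. The windows are given from 5′ to 3′ in the direction of the gene, with kB and ISRE matches in capitals as named for each.
Cxcl10, chr5:92348840-92349139 (minus strand), ISRE 213 bases and kB 159 and 103 bases before the start: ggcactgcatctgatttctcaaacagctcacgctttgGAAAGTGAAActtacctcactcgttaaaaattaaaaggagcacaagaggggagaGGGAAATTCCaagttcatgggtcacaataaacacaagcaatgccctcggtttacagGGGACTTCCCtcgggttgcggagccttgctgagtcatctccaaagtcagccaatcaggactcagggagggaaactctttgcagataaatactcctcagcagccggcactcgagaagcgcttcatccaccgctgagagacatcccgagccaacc
Cxcl2, chr5:90903649-90903948 (plus strand), kB letters from 97 bases before the start: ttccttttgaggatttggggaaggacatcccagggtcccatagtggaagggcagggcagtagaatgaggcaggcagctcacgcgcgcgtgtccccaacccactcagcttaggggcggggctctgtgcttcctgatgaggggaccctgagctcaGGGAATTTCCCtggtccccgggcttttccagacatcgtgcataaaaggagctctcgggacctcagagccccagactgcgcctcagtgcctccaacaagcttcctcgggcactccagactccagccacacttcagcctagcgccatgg
Cxcl1, chr5:90890995-90891294 (plus strand), kB letters from 71 bases before the start: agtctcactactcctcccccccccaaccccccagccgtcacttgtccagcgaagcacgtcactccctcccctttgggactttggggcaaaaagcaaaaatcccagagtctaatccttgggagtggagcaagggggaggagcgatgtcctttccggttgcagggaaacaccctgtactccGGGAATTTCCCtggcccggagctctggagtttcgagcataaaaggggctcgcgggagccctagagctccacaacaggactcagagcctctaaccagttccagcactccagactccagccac
Mmp13, chr9:7272264-7272563 (plus strand), ISRE letters 146 bases before the start: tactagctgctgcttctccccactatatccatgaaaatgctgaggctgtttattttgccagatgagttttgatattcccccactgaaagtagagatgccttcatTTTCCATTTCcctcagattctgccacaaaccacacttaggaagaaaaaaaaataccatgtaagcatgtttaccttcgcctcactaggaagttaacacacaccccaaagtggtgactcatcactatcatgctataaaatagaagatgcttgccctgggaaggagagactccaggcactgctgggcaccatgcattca
Saa3, chr7:46715627-46715926 (minus strand), ISRE letters 125 bases before the start: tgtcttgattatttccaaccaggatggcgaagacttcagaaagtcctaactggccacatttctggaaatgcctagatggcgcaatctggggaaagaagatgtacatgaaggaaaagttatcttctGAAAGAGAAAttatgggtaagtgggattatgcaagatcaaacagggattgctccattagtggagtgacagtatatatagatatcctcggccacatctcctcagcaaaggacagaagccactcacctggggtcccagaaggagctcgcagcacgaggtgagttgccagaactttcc
The capitals of Cxcl2 and Cxcl1 are the same 11 bases and hold 2 overlapping kB matches each, 1 on each strand. Among the windows printed, that of Cxcl10 held both elements. A match is a description of the letters and was not tested as a binding site.

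Other cytokine families rose in part. Of 16 measured genes of the interleukin-1 family, 6 rose and 0 fell. Il1rn, the receptor antagonist, rose 16.6-fold, Il1a 13.3-fold and Il1b 3.56-fold, the last from 8.39, 8.33 and 9.0 to 10.50, 10.32 and 10.40. Il1r2, the decoy receptor, rose 6.39-fold and Il33, a cytokine of stromal cells, 3.38-fold. Of the interleukin-6 family, 5 of 8 measured ligands rose. Il27 (3.38) and Ebi3 (1.46), the 2 chains of interleukin-27, rose along with Lif and Osm (1.18 each). With its probe sets averaged, Ebi3 had a log2 fold-change of 0.87 and was not called. Of 6 measured receptor genes, Lifr (-1.29) and Il27ra (-1.40) fell and 1 rose (1.09).

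Ifng, the macrophage-activating interferon-gamma of NK cells and T cells, was 3.40, 3.04 and 3.39 in naive mice and 8.97, 7.95 and 8.59 after LPS, a fold-change of 37.4. LPS replicate 2 was again the lowest of the 3, still far above the naive mice. Il12a (0.77) and Il12b (0.60), the chains of interleukin-12, were not called. Among 15 receptors of that list, 4 rose, namely Il2ra (3.85), the high-affinity chain of the interleukin-2 receptor, Il15ra (2.38), Il12rb2 (1.81) and Il12rb1 (1.31). Il17f (2.52) and Il17a (2.0), cytokines of T cells that act on stroma and neutrophils, rose too, and Il15 by 1.06. Tnf, the early cytokine of macrophages, went from 8.16, 8.42 and 8.28 to 10.07, 9.98 and 10.32, a fold-change of 3.57. Il10, the anti-inflammatory cytokine, went from 3.55, 3.48 and 3.79 to 5.47, 5.47 and 5.52, a fold-change of 3.68. It was the 1 gene of 11 measured in its family that was called, which cannot be told from the 8.63% called among all genes. Csf3, the growth factor of neutrophils, rose 5.36-fold and Csf2 2.29-fold, while Csf1r, the receptor that macrophages depend on, fell 3.24-fold. With its probe sets averaged, Csf2 had a log2 fold-change of 0.505 and was not called.

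In the TNF superfamily, 4 of 16 ligands rose and 1 fell. Besides Tnf, Tnfsf15 (1.51), Tnfsf10 (1.48), the death ligand TRAIL, and Tnfsf9 (1.07) rose, and Ltb (-1.85), a lymphotoxin that organises the white pulp, fell. Of 25 receptors 6 rose and 2 fell. The costimulatory receptors Tnfrsf9 (2.77) and Cd40 (2.10) and the death receptor Fas (1.49) were among the former, and Cd27 (-1.07) and Tnfrsf17 (-1.14), receptors of lymphocytes and plasma cells, were the latter. Of 25 costimulatory and checkpoint molecules 9 rose and 4 fell. Cd274, the checkpoint ligand PD-L1, rose 9.32-fold from 6.69, 6.76 and 6.91 to 10.14, 10.02 and 9.86, and its relative Pdcd1lg2 by 1.82 on the log2 scale. Havcr2, the checkpoint receptor TIM-3, fell 5.92-fold.

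Genes of LPS sensing moved in both directions. Cd14, which delivers LPS to the receptor, rose 4.68-fold, from 7.30, 7.74 and 8.08 in naive mice to 10.02, 9.99 and 9.79 after LPS. Tlr4 itself fell 2.71-fold, from 6.72, 6.62 and 6.45 to 4.98, 5.14 and 5.35, and Cd180, a TLR4-like receptor of B cells, 4.99-fold. The groups did not overlap for any of the 3 genes, and LPS replicate 3 was closest to the naive mice for Cd14 and Tlr4. Myd88, the adaptor, rose by 1.46 on the log2 scale, and Ly96, the co-receptor MD-2, was not called (0.66). Alpl (2.38) and Aoah (1.70), 2 enzymes that detoxify LPS, rose. In the list of Toll-like, NOD-like and C-type lectin receptors, 3 of 27 rose and 10 fell. Tlr11 (-2.46), Tlr8 (-1.58), Tlr13 (-1.22), Tlr5 (-1.16) and Tlr12 (-1.11) fell, whereas Clec4e, the receptor Mincle for mycobacterial glycolipid, rose 7.11-fold.

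Genes of the NF-kB pathway rose in many cases and fell in none, 12 of 20 (median 1.22). The largest changes were in inhibitors and feedback genes. Tnip3, an A20-binding inhibitor, rose 18.4-fold from 4.28, 4.61 and 4.01 to 8.40, 8.61 and 8.49. Tnfaip3, the ubiquitin-editing A20 itself, rose 5.43-fold, Nfkbiz, a nuclear IkB protein needed for Il6, 5.71-fold and Bcl3 3.59-fold. Among the subunits, Nfkb2 was called (1.18), and Rela (0.92), Relb (0.83) and Rel (0.63) stayed under the fold criterion. Of 26 AP-1 and immediate early factors 14 rose, led by Atf3 (2.76), Myc (2.63) and Batf (2.41), and 2 fell, Klf2 (-1.32), which keeps T cells and endothelium quiescent, and Klf4 (-1.13). Genes that end MAP kinase signals or degrade cytokine mRNA rose in 5 of 17 cases, with Dusp1 (2.35) and Zc3h12a (1.81), the RNase regnase-1, among them. Socs1 rose 10.3-fold from 5.86, 5.44 and 5.84 to 9.0, 9.13 and 9.09 and Socs3 rose by 3.17 on the log2 scale. Both encode inhibitors of cytokine receptor signalling, and 6 of 18 STAT and SOCS genes rose.

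**Figure D2:**
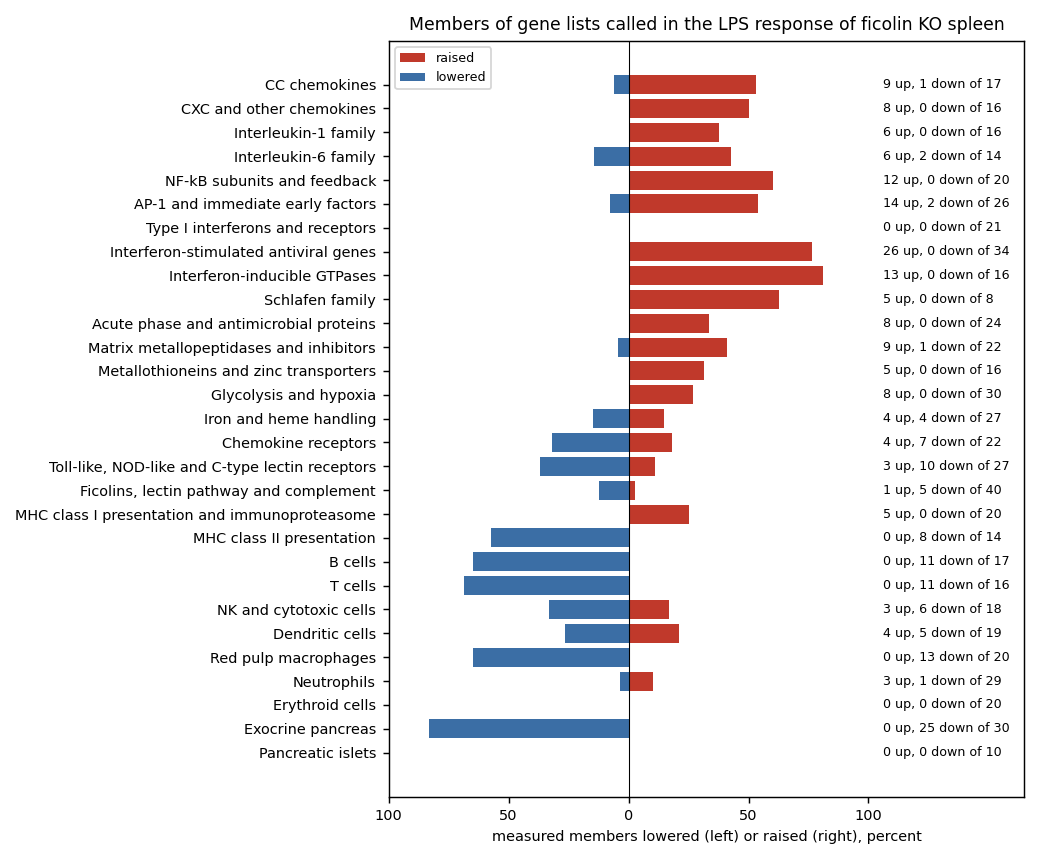
Percent of the measured members of each gene list (x axis) that were raised, to the right in red, or lowered, to the left in blue, in LPS challenged against naive ficolin KO mice at a fold-change > 2 and an adjusted p < 0.05. Numbers on the right give the members called and measured. Interferon-inducible GTPases, with 13 of 16 raised, form the longest bar to the right and the exocrine pancreas, with 25 of 30 lowered, the longest to the left.

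Interferon-stimulated genes rose in large numbers. Of 34 measured antiviral genes 26 rose and 0 fell (median 1.95), and of 16 interferon-inducible GTPases, which attack the vacuoles of intracellular pathogens, 13 rose (median 2.39). Oasl1, an inhibitor of Irf7 translation, rose 17.8-fold from 6.00, 5.81 and 6.00 to 10.26, 10.18 and 9.82. Oas3, an enzyme that activates RNase L, went from 5.99, 5.73 and 6.35 to 9.38, 9.45 and 9.35, and Ifit1, which binds foreign RNA caps, rose by 3.35 on the log2 scale. Gbp5, a guanylate-binding protein, was 6.83, 6.31 and 6.67 in naive mice and 10.25, 10.19 and 10.18 after LPS. For each of these genes the 3 LPS values lay above the 3 naive values. Mx1 (3.10), Usp18 (3.05), which cleaves ISG15 from proteins, Isg15 (2.78) and Iigp1 (3.07) rose as well. Ifit3 (0.21) and Oas1c (-0.06) were among the 8 antiviral genes that were not called.

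Transcripts of the type I and lambda interferons were not called, whereas Ifng, the type II interferon described above, rose. Of 21 measured genes of type I and lambda interferons and their receptors, 0 rose and 0 fell, 1 had an adjusted p < 0.05 from limma without the fold criterion, and 3 had an unadjusted p < 0.05. Among all genes 8.63% were called, a share from which 0 of 21 cannot be told. Ifnb1, interferon-beta, was 2.27, 2.16 and 2.90 in naive and 2.75, 2.38 and 2.76 in LPS challenged mice, below the median of every array in each, and the groups overlapped. Both groups had a mean below that median for 12 of the 18 measured ligands, so that a change in them could hardly have been seen. Irf7 rose 7.21-fold, Irf1 4.48-fold and Irf8 2.39-fold, while Irf3, which is activated without new transcription, had a log2 fold-change of -0.27. Stat2 and Stat3 rose by 1.69 and 1.66. Of 8 Schlafen genes 5 rose, Slfn4 the most (3.10). Probe sets of close relatives, such as the Ifna, Oas, Gbp and Slfn genes, may read each other's RNA.

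Acute phase and tissue-remodelling genes were raised in part. Of 24 acute phase and antimicrobial genes 8 rose, among them Lcn2 (2.86), which withholds bacterial siderophores, Hp (2.16), the hemoglobin scavenger haptoglobin, and Ptx3 (1.81), a soluble pattern recognition molecule. Of 22 metallopeptidases and inhibitors 9 rose, and Timp2 fell (-1.52). Besides Mmp13 and Timp1 these were Adamts4 (3.24), Mmp3 (2.63), Mmp25 (2.45), Adamts9 (2.44), Mmp14 (2.12), Adamts1 (2.03) and Timp3 (1.19). Mmp8 (0.70) and Mmp9 (-0.78), the metallopeptidases of neutrophils, were not called. Of 24 coagulation genes 6 rose, including Procr (2.78), the endothelial protein C receptor, and F3 (1.34), tissue factor. F8, coagulation factor VIII, fell (-1.13). Among adhesion molecules of endothelium, Icam1 (2.19), Sele (1.86) and Selp (1.79) rose, and Icam2 (-1.15) and Vcam1 (-1.30), which red pulp macrophages express as well, fell.

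Of 16 measured genes of arginine, nitric oxide and itaconate metabolism 7 rose, 2 fell and 7 were not called. Nos2, the inducible nitric oxide synthase, was 4.26, 4.19 and 4.22 in naive and 7.64, 7.19 and 6.87 in LPS challenged mice, a fold-change of 8.06. The arginine transporters Slc7a1 (2.64) and Slc7a2 (1.98), Gch1 (1.23), which makes the cofactor of Nos2, Arg2 (1.14) and Odc1 (1.45) rose. Gucy1a1, a subunit of the nitric oxide receptor guanylate cyclase, fell 12.7-fold, from 8.18, 8.08 and 8.21 to 4.60, 4.15 and 4.71, and Pts (-1.02), which acts after Gch1 in making that cofactor, fell too. In glycolysis, 8 of 30 genes rose and 0 fell, with Hk2 (2.49), Pfkfb3 (2.21) and Hif1a (1.71), a transcription factor of hypoxia, in front. In the TCA cycle, 0 of 22 genes rose and 3 fell, namely Idh1 (-2.37), Idh2 (-1.18) and Mdh1 (-1.11), of which Idh1 and Mdh1 encode the cytosolic forms. With 8.63% called among all genes, 3 of 22 cannot be told from that share. Idh1 went from 7.52, 7.76 and 7.65 to 5.13, 5.26 and 5.44, with no overlap.

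Of 24 measured genes of prostaglandin and leukotriene metabolism 3 rose, 5 fell and 16 were not called. Ptgs2 (4.90), Ptges (1.16) and Ptges3 (1.07), which make prostaglandin E2, rose, and Hpgd (-2.23), which degrades it, and its transporter Slco2a1 (-1.13) fell. Alox5ap (-2.0) and Ltc4s (-1.27), of leukotriene synthesis, fell too, as did the thromboxane receptor Tbxa2r (-1.62). In tryptophan metabolism Wars, the interferon-inducible tRNA synthetase, rose (2.02), Kynu (-1.62) and Kmo (-1.51) fell, and Ido1, the entry enzyme, was not called (0.37).

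Iron genes held the largest fall of all genes. Slc40a1, ferroportin, the iron exporter through which red pulp macrophages return the iron of old red cells to the blood, was 10.36, 10.56 and 10.58 in naive mice and 5.38, 5.20 and 5.17 after LPS. The 3 mice of each group lay close together and far from the other group, and the fall was 38.1-fold (log2 -5.25, SE 0.13, adjusted p = 2.04e-12 from limma). Hamp, the hormone hepcidin, which is made mainly in liver and degrades ferroportin, rose 7.26-fold, from 3.05, 3.21 and 3.91 to 6.58, 6.44 and 5.73. Steap4 (2.90), a metal reductase, and Slc39a14 (1.82), an importer of zinc and iron, rose, whereas Hfe (-2.41), an upstream regulator of hepcidin, Hmox1 (-1.12), heme oxygenase, and Cd163 (-1.10), the hemoglobin receptor, fell. Tfrc (0.70) and Fth1 (0.66), for uptake and storage of iron, were not called. Of 16 metallothioneins and zinc transporters 5 rose, Mt2 from 8.70, 8.6 and 8.56 to 12.46, 12.37 and 12.23 and Mt1 by 2.79 on the log2 scale.

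Stress genes moved in part. Of 21 genes of the unfolded protein and integrated stress response 6 rose, namely Atf4 (1.56), the transcription factor of the integrated stress response, Ppp1r15a (1.44), Chac1 (2.73), Trib3 (2.28), Sesn2 (2.0) and Asns (1.69). The chaperone Hspa5 (0.46) and Xbp1 (-0.39), of the endoplasmic reticulum, were not called. Of 22 genes of the list on antioxidant defense and oxidants 3 rose and 2 fell. Sod2 (2.15), the mitochondrial superoxide dismutase, Txnrd1 (1.41) and Slc7a11 (1.11) rose, and Cat (-1.47), catalase, and Ncf4 (-1.02), a subunit of the NADPH oxidase that makes superoxide, fell. With its probe sets averaged, Slc7a11 had a log2 fold-change of 0.87 and was not called. Of 20 glucocorticoid-responsive genes 8 rose, Cdkn1a (2.86), a cell cycle inhibitor, and Dusp1 among them, but Tsc22d3 (-0.58) and Fkbp5 (0.92), which also answer to glucocorticoids, were not called. Genes of the circadian clock rose in 3 and fell in 2 of 17 cases, with Ciart (2.41) and Nfil3 (2.0) up and Arntl (-1.04), which encodes BMAL1, down. Casp4 (2.20), the mouse caspase-11 that binds LPS in the cytosol, and Nlrp3 (1.79) were the inflammasome genes that rose, Nek7 (-1.52), a partner of Nlrp3, fell, and Bcl2a1a (1.75) and Bcl2l11 (1.5) led the BCL2 family. In the cell cycle, 35 of 37 genes were not called, and in cholesterol metabolism 21 of 25. Among all genes 8.63% were called, and with so few genes these counts cannot be told from that share.

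B cell genes fell in many cases and rose in none. Of 17 measured B cell genes 11 fell and 0 rose (median -1.49). Cd79a, the signalling chain of the B cell receptor, went from 12.06, 11.94 and 11.74 to 9.56, 9.51 and 9.63, a fall of 5.09-fold, and its partner Cd79b fell 4.68-fold. Fcmr (-2.57), the IgM receptor, Fcrla (-2.47), Cr2 (-2.03), the complement receptor of B cells and follicular dendritic cells, Fcer2a (-1.91) and Bank1 (-1.86) fell as well. The transcription factors Pax5 (0.04) and Ebf1 (-0.44), Cd22 (-0.23) and Ighm (-0.19) were not called. The mean over the list was 10.05 to 10.21 in naive and 8.67 to 8.87 in LPS challenged mice. Of 9 plasma cell genes 2 fell and 1 rose.

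Among 16 T cell genes 11 fell and 0 rose (median -1.11), and the mean over the list was 7.55 to 7.74 in naive and 6.53 to 6.76 in LPS challenged mice. Cd3g, a chain of the T cell receptor complex, was 9.05, 9.01 and 8.81 in naive mice and 5.84, 5.79 and 6.63 after LPS, a fall of 7.31-fold, larger than the falls of Cd3e (-1.33) and Cd3d (-1.01), which belong to the same complex. LPS replicate 3 was the highest of the LPS challenged mice for Cd3g. Cd4 (-1.19), Cd8a (-1.06) and Cd8b1 (-1.30) fell, and Foxp3 (0.67), of regulatory T cells, and Zap70 (0.43) were not called. Of 22 chemokine receptors 4 rose and 7 fell. Cx3cr1, of patrolling monocytes, fell 6.44-fold from 7.53, 7.44 and 7.30 to 4.98, 4.26 and 4.97, Cxcr4, the receptor for Cxcl12, 3.40-fold, Ccr2 2.98-fold and Cxcr3 2.58-fold. Ccr3, the eotaxin receptor of eosinophils, went from 8.33, 8.44 and 7.98 to 4.50, 4.09 and 4.14, a 16.1-fold fall. The eosinophil granule genes Prg2 (0.13) and Epx (-0.16) and the eosinophil surface gene Siglecf (-0.12) were not called. Ccrl2 (3.37) and Ccr7 (1.71), which guides cells to T cell zones, rose.

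Several NK cell receptors fell, and granzyme B rose. Klrd1, CD94 of the inhibitory receptor complex, was 8.63, 8.43 and 7.83 in naive and 4.77, 5.09 and 5.05 in LPS challenged mice, a 10.0-fold fall. Ncr1, the activating receptor NKp46, fell 5.22-fold, Klrb1c, NK1.1, 3.15-fold, and Sh2d1b1, an adaptor of NK cell signalling, 9.56-fold. In the opposite direction, Gzmb, the cytotoxic protease granzyme B, rose 20.9-fold from 4.50, 5.03 and 4.59 to 9.17, 9.19 and 8.91, and Tbx21, the transcription factor T-bet, 4.30-fold. Prf1 (0.22), perforin, Gzma (0.047) and Eomes (-0.047) were not called. Of the 18 measured genes of this list 3 rose and 6 fell.

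In antigen presentation, the calls went down for class II and up for class I. Of 14 MHC class II genes 8 fell and 0 rose (median -1.14). H2-Oa (-2.34) and H2-Ob (-2.26), which restrain peptide loading in B cells, fell most, H2-Oa from 10.04, 10.08 and 9.58 to 7.66, 7.59 and 7.44. Ciita, the class II transactivator, fell 2.82-fold, from 9.27, 9.12 and 9.16 to 7.92, 7.43 and 7.71, and H2-DMb1 and H2-DMb2, chains of the class II peptide loader, with log2 fold-changes of -1.24 and -1.44. The classical chains H2-Aa (-0.87) and H2-Ab1 (-0.82) stayed under the fold criterion. Of 20 class I genes 5 rose and 0 fell, led by Nlrc5 (1.99), the class I transactivator, and the peptide transporter Tap1 (1.76). Dendritic cell genes rose in 4 and fell in 5 of 19 cases. Fscn1 (2.83), a marker of mature dendritic cells, and Ccr7 rose, and Itgax (-1.82), CD11c, and Xcr1 (-1.46), of cross-presenting cells, fell.

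Of 20 genes of red pulp macrophages 13 fell and 0 rose (median -1.13). Among them, besides Slc40a1, were Hpgd, Cd5l (-2.11), a secreted scavenger protein, Mrc1 (-1.83), the mannose receptor, C6 (-1.83) and Adgre1 (-1.38), which encodes F4/80. Spic (0.41), the transcription factor that defines these cells, and Axl (-0.21) were not called. Marco (0.70) of marginal zone macrophages was not called, and Cd209b (-1.27) and Adgre4 (-2.13) of that list fell. The neutrophil list had 3 genes raised and 1 lowered of 29, a count that cannot be told from the 8.63% called among all genes. Its mean was 5.14 to 5.85 in naive and 5.54 to 5.82 in LPS challenged mice. Lcn2 (2.86), Fpr2 (2.82) and Il1r2 (2.68) were the genes raised, and Cxcr2 fell (-1.10). S100a8 (-0.43), a chain of calprotectin, and Ngp (0.19), a granule protein, were not called. Of 16 monocyte genes 3 rose and 5 fell.

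**Figure D3:**
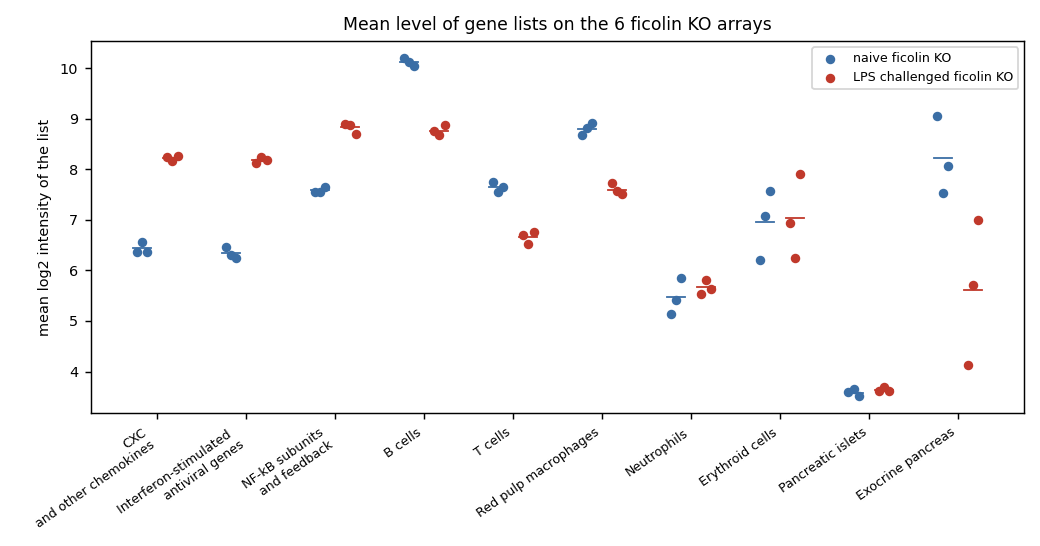
Mean log2 intensity over the measured genes of 10 lists (y axis) on each of the 6 ficolin KO arrays, blue for naive and red for LPS challenged mice, replicates 1 to 3 from left to right, with lines at the group means. Lists of immune genes other than the neutrophil list lie close together within a group. The neutrophil, erythroid and islet lists overlap between the groups, and the exocrine pancreas list lies at 4.12, 5.71 and 6.99 on the 3 LPS arrays.

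Erythroid genes of the spleen held no DEG. Of 20 erythroid genes 0 rose and 0 fell, and 0 passed an adjusted and 0 an unadjusted p < 0.05 from limma at any fold-change. Among all 22180 genes 8.63% were called, and 0 of 20 cannot be told from that share, while 6152 had an adjusted and 8005 an unadjusted p < 0.05. The mean over the erythroid list varied from 6.2 to 7.56 in naive and from 6.25 to 7.91 in LPS challenged mice. With such a spread within the groups, the lack of calls does not show that erythroid genes were unchanged. In splenic stroma 2 of 32 genes rose, Col4a1 (1.41) and Col4a2 (1.42) of basement membranes, and 4 fell. Tcf21, a transcription factor of splenic mesenchyme, went from 8.49, 8.80 and 8.18 to 5.36, 4.71 and 4.66, a 12-fold fall, and Tlx1, another factor of spleen development, fell 2.75-fold. Of 28 endothelial genes 6 rose and 5 fell, with Stab2 (-2.01), the scavenger receptor of sinus endothelium, and Kdr (-1.11), the VEGF receptor, among the latter. Among other genes with large falls were Abcg3 (16.9-fold), of the ABC transporters, Pgap1 (13.2-fold), which remodels GPI anchors, and Gpr141b (11.8-fold), an orphan receptor. Gm26504, an uncharacterised transcript, was 8.59, 9.14 and 6.89 in naive and 3.31, 2.81 and 3.52 in LPS challenged mice, with naive replicate 3 the lowest of its group.

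Further lists changed in a few members. Of 22 genes of lymphocyte egress and homing 6 rose and 5 fell. Cd69, which holds lymphocytes in tissue by removing the egress receptor from the surface, rose 6.96-fold, from 7.55, 7.10 and 7.33 to 10.01, 10.32 and 10.05, and Itgb7, an integrin chain for homing to the gut, fell 5.82-fold, from 7.91, 7.88 and 8.09 to 5.26, 5.58 and 5.42. The groups of both genes lay far apart. Among chemoattractant receptors, Fpr2 (2.82), a formyl peptide receptor, Gpr84 (2.0) and Ptafr (1.24), the receptor of platelet-activating factor, rose and S1pr4 fell (-1.63). Of 15 genes of megakaryocytes and platelets 1 rose, Thbs1 (1.88), and 3 fell, among them P2ry12 (-1.38), the ADP receptor. Il5ra (-1.76), the interleukin-5 receptor of eosinophils, fell along with Ccr3. Pparg (-1.72), a nuclear receptor of lipid metabolism, was the 1 gene of 11 in the list of adipose tissue that was called, near the 8.63% of all genes.

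The ficolins belong to the lectin pathway of complement. Of 8 measured genes of the lectin pathway 0 rose and 0 fell, beside 8.63% called among all genes, and 8 genes are too few to differ from that share. Colec12, a collectin, was the 1 gene with an adjusted p < 0.05 from limma, at a log2 fold-change of -0.76, under the fold criterion. The log2 fold-changes were -0.023 for Mbl1 and 0.14 for Mbl2, the mannose-binding lectins, and -0.043 for Masp1, a serine protease of the pathway. Over the whole complement list, Cfb, factor B of the alternative pathway, was the 1 gene of 40 that rose (2.17), and 5 fell. Cd55, the decay-accelerating factor that protects cells from complement, was 8.59, 8.32 and 8.50 in naive and 5.97, 5.06 and 6.05 in LPS challenged mice, a 6.85-fold fall, and C6, C1qc (-1.42), Cr2 and Itgax also fell. Among Fc receptors, Fcgr4 (1.99), an activating IgG receptor, rose and Fcgrt (-2.22), the neonatal Fc receptor, fell.

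MicroRNA genes were read through their precursors, and the arrays say nothing on mature microRNAs. Of 483 measured microRNA genes 9 rose and 5 fell, a smaller share than the 8.63% called among all genes. Most were dim, as the mean over these genes was 3.53 to 3.57 in naive and 3.54 to 3.61 in LPS challenged mice, below the lowest array median of 4.17. Of the raised genes, 4 lay within 593 bases of chromosome 14 (chr14:115043671-115044263, plus strand, RefSeq, GRCm38.p6), the cluster that includes miR-17 and is known to be driven by Myc. Mir18, named after its values were seen, went from 4.08, 4.07 and 4.52 to 6.91, 7.08 and 6.54, Mir17 from 3.98, 3.77 and 3.46 to 5.93, 5.65 and 5.47, Mir19a from 2.48, 2.40 and 2.96 to 4.59, 4.71 and 4.52 and Mir20a from 3.01, 2.84 and 3.13 to 5.28, 5.14 and 4.37. The groups did not overlap for any of the 4 genes, although naive values were close to or below the median of an array. Their mature sequences are shown with the seed, bases 2 to 8, in capitals, because the seed sorts them into families.
miR-17-5p: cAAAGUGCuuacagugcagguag
miR-20a-5p: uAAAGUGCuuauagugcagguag
miR-18a-5p: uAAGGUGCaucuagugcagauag
miR-19a-3p: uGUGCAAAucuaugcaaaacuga
miR-17-5p and miR-20a-5p share their seed, and miR-18a-5p and miR-19a-3p each have another. Mir1949 rose 11.8-fold, from 5.45, 5.25 and 5.77 to 9.12, 9.07 and 8.95, the most of the microRNA genes. Mir101c fell 24.6-fold, from 8.33, 8.63 and 6.96 to 3.31, 3.49 and 3.26, with naive replicate 3 the lowest of its group. Mir146 (-0.043) and Mir142 (0.19), known from myeloid cells, were not called.

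Digestive enzyme genes of the exocrine pancreas, an organ that lies against the spleen, were lowered but unevenly. Of 30 measured genes 25 fell and 0 rose (median -2.80). Cpb1, carboxypeptidase B, was 12, 10.56 and 11.20 in naive mice and 3.54, 7.87 and 9.85 in LPS challenged mice, and Ctrb1, chymotrypsinogen, 13.05, 11.81 and 12.42 and 5.36, 9.45 and 11.10. The naive mice were high for both, and among the LPS challenged mice replicate 1 was lowest and replicate 3, still below each naive mouse, highest. The mean over the list was 7.54 to 9.06 in naive mice and 4.12, 5.71 and 6.99 in LPS replicates 1, 2 and 3. WT mice did not share this fall. In them 1 of the 30 genes rose and 0 fell (median 0.635), with list means of 6.85 to 8.57 in naive and 7.455 to 9.33 in LPS challenged WT mice. Of the 10 DEGs with the largest SD over the LPS arrays, 9 were on this list and the tenth was Reg1, a secreted lectin of the pancreas, with SDs from 2.10 to 3.23 on the log2 scale. The islet list, with genes such as Ins2 (0.053) and Gcg (0.10), had 0 raised and 0 lowered of 10 genes. Of these, 0 had an unadjusted p < 0.05 from limma. The mean of the islet list was 3.51 to 3.65 in naive and 3.61 to 3.70 in LPS challenged mice. Such dim values, under the lowest array median of 4.17, leave little room to see a fall of islet genes. With 8.63% called among all genes, 0 of 10 cannot be told from that share. In place of 25, the count of lowered genes was 15 without KO naive replicate 1, 16 without KO LPS replicate 1, 8 with trended and robust variances and 0 with ordinary least squares on the 6 arrays. Whether the amount of pancreas tissue in the samples had a part in these falls was not tested. Outside the exocrine pancreas, islet and Reg lists, LPS challenge raised 936 and lowered 951 of 22133 genes.

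The response of ficolin KO mice was set beside that of WT mice by the difference between the responses, tested in the same fit. That difference passed an adjusted p < 0.05 from limma for 2 of 22180 genes (0.00902%), Reg2 and Coq4, while 783 genes had an unadjusted p < 0.05. WT mice had 898 raised (4.05%) and 1096 lowered genes (4.94%). Of the 936 genes raised in ficolin KO mice, 788 were called in WT mice too, which is 84.2% of the former and 87.8% of the WT genes, and each of the 936 had a log2 fold-change above 0 in WT mice. Of the 978 lowered genes, 818 were called in WT mice, 83.6% of the former and 74.6% of the WT genes, and 949 had the same sign. Of the other 29, 26 were on the exocrine pancreas or Reg lists. The log2 fold-changes differed by no more than 0.5 between the genotypes for 891 of the 936 raised and 906 of the 978 lowered genes. The median standard error of the difference was 0.20, but after adjustment over all genes far larger differences did not pass, and a p above the threshold does not show that the genotypes responded alike.

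For several of the genes with the largest changes, the responses of both genotypes differed by less than their standard errors. Slc40a1, Il6 and Ifng were such genes. Mmp13 had a log2 fold-change of 6.86 in ficolin KO and 7.11 in WT mice, a difference of -0.24 (SE 0.21, adjusted p = 0.998 from limma). The fall of Slc40a1 was -5.25 and -5.31 (difference 0.057, SE 0.18), the rise of Il6 5.53 and 5.69 (difference -0.15, SE 0.38) and that of Ifng 5.23 and 5.11 (difference 0.12, SE 0.35). Cxcl10 rose by 4.36 and 5.09 on the log2 scale. Its difference of -0.73 (SE 0.19) had an unadjusted p of 0.00207 and did not pass the adjustment (adjusted p = 0.998 from limma). The naive ficolin KO mice were higher than the naive WT mice for Cxcl10, at 7.11, 6.95 and 7.49 in the latter, while the LPS challenged WT mice read 12.39, 12.21 and 12.22. Tnip3 rose by 4.2 and 4.91, and this difference did not pass the adjustment either (adjusted p = 0.998 from limma).

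**Figure D4:**
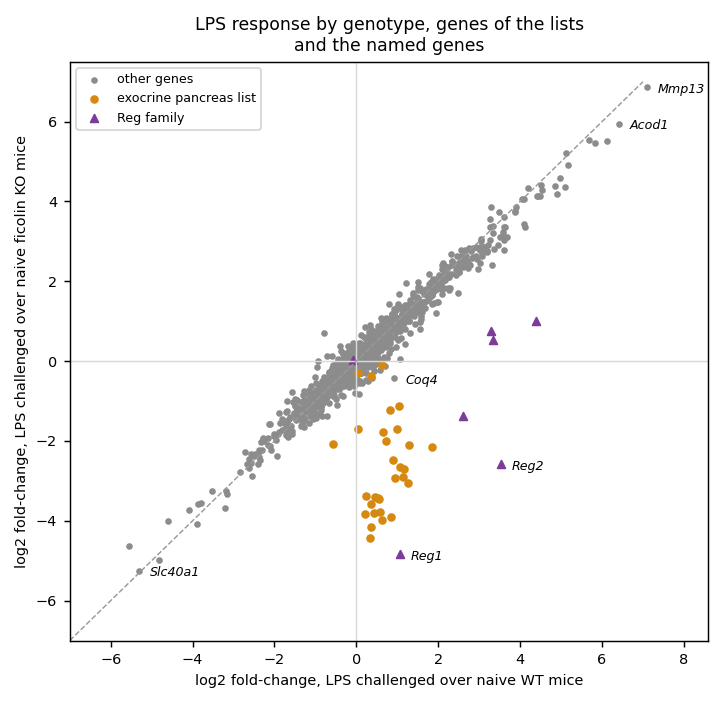
Log2 fold-change between LPS challenged and naive mice in ficolin KO mice (y axis) against that in WT mice (x axis), for the genes of the lists and the named genes. Orange points are exocrine pancreas genes, purple triangles the Reg family, grey points other genes, and the dashed line marks equal responses. Most grey points lie near the line, from Slc40a1 at the lower left to Mmp13 at the upper right, and most exocrine pancreas and Reg genes lie below it.

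Both genes that differed were lower after LPS in ficolin KO mice and higher after LPS in WT mice. Coq4, a gene of the coenzyme Q pathway, was 6.61, 6.81 and 6.63 in naive and 6.33, 6.19 and 6.24 in LPS challenged ficolin KO mice, and 6.62, 6.55 and 6.41 in naive and 7.61, 7.35 and 7.41 in LPS challenged WT mice. Each LPS value was below each naive value in ficolin KO mice and above it in WT mice. The log2 fold-changes of -0.43 and 0.93 differed by -1.36 (SE 0.16, adjusted p = 0.00657 from limma). Reg2, a secreted protein of pancreas and gut, was 6.88, 6.14 and 6.59 in naive ficolin KO mice and 2.99, 3.53 and 5.35 after LPS, in the same order of replicates as the pancreas genes, a fall of 5.98-fold. In WT mice it was 3.87, 3.13 and 4.21 in naive mice and 6.51, 7.09 and 8.21 after LPS, a rise of 3.53 on the log2 scale. The difference was -6.11 (SE 0.72, adjusted p = 0.00657 from limma). With the mean of the pancreas list added as a covariate, the difference was -1.56 for Coq4 (adjusted p = 0.136 from limma), larger than without it, and -4.25 for Reg2 (adjusted p = 0.568 from limma). Reg1 fell in ficolin KO mice, from 11.22, 9.54 and 10.09 to 2.41, 5.95 and 7.98, and had a log2 fold-change of 1.07 in WT mice. The mean of the Reg list was 4.66 to 5.21 in naive and 2.93 to 5.15 in LPS challenged ficolin KO mice, where 2 of 7 genes fell and 0 rose. In WT mice it was 3.96 to 4.38 in naive and 6.04 to 7.80 in LPS challenged mice, and 5 of the 7 genes rose and 0 fell.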

How the data were processed

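Spleen RNA of 12 mice was hybridized to 12 Mouse Gene 2.0 ST arrays, and arrays were assigned to 4 groups of 3 by their labels. The authors applied quantile normalization and RMA to the arrays. What they deposited are log2 intensities of 41345 probe sets, from 1.38 to 13.86. The genome build behind the probe annotation is not given in the sources used here. Normalization to equal distributions hides a change shared by most genes, and no detection calls were used, so dim genes were kept.

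Probe sets with 1 gene symbol (23521) were used, those with several (1820) or none (16004) entered only the fit over all probe sets, and of 1082 genes with more probe sets the one with the highest mean over the 12 arrays was taken, which left 22180 genes. Limma 3.58.1 in R 4.3.3 was fitted to the 4 group means on all 12 arrays (8 residual degrees of freedom), with contrasts for LPS challenged against naive mice in each genotype and for the difference between both, and p-values were adjusted by Benjamini-Hochberg over all genes. DEGs had a fold-change above 2 and an adjusted p below 0.05. The fit was tested on simulated data. The number of arrays limits the precision. The median standard error of a log2 fold-change was 0.14, and 3 against 3 mice cannot give an exact two-sided permutation p below 0.1. The labels do not say whether mice were handled together, and no scan or batch was given.

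Named genes are the 25 largest rises and falls with groups that did not overlap, up to 6 DEGs of each direction in each of 65 gene lists with further members where a count needs them, genes with a different response in WT mice, the ficolins, genes the paper names, the 10 DEGs with the largest SD over the LPS arrays, the 3 genes on either side of each criterion and, for promoters, up to 3 of the 25 rises with the most ISRE and 3 with the most kB matches. Other names were picked after their values were seen. The genes, lists and tests were chosen with earlier results of these data known. Lists are described by counts and medians without a test. Promoters and microRNAs were taken from RefSeq tables of GRCm38.p6, where 16990 of the 22180 genes had a promoter window (76.6%) and 11 of the 14 called microRNA genes a sequence. Alternatives were the 6 KO arrays alone with or without moderated variances, trended and robust variances, array weights, dim genes left out, all probe sets, probe sets averaged, 2 other scalings, a replicate block, the exocrine pancreas mean as a covariate, each array left out, and other fold criteria.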

Additional observations from a re-analysis of the deposited data

Results flagged for a closer look

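Between the genotypes, 2 genes had a different LPS response. Coq4, of coenzyme Q synthesis, differed by -1.36 on the log2 scale between ficolin KO and WT mice, and Reg2, a secreted protein of pancreas and gut, by -6.11, both by limma's test of the difference between the responses with an adjusted p = 0.00657. Reg2 was in the same order as the mean of the exocrine pancreas list over the 3 LPS challenged ficolin KO mice. The same held in naive ficolin KO and LPS challenged WT mice. In naive WT mice the list mean was 6.85, 8.57 and 7.77, and Reg2 was lowest where the list was highest. Naive ficolin KO mice had list means of 7.54 to 9.06 and higher Reg2 than naive WT mice. The part of pancreas tissue in the difference of Reg2 was not tested.

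Probe sets with no gene symbol or with several, which were used only in the fit over all probe sets, also carried a response. Of 17824 such probe sets, 396 were raised and 692 lowered in LPS challenged against naive ficolin KO mice at a fold-change > 2 and an adjusted p < 0.05 from limma over all probe sets.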

How the results depend on the processing

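The counts of raised and lowered genes stayed within 1.5 times of 936 and 978 under most alternatives. They were 1930 and 2306 (4236 in all) at a fold-change > 1.5 and 2852 and 3300 (6152) without a fold criterion, and over all probe sets, with more features tested, 1694 were lowered and 3074 changed in all. Leaving out 1 array in turn gave 907 to 1009 raised and 914 to 1078 lowered genes, 1821 to 2087 in all. With the mean of the pancreas list as a covariate the counts were 839 and 938, of which 774 and 791 were among the 936 and 978 genes. With array medians subtracted, which moved the median of all genes by 0.082, there were 1077 raised and 831 lowered genes, so that the scaling decided whether more genes were raised or lowered. Of the 331 named DEGs, ordinary least squares on the 6 KO arrays lost 32. Averaging the probe sets of a gene lost 7, and the covariate 46. The covariate turned the sign of Pnliprp1 (0.30) and Try4 (0.050). Both genes, and others of the 46, are members of the list that made the covariate, so their loss follows from its choice. The cause of the other losses was not tested.

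The number of genes whose response differed between the genotypes was 2 to 3 with an array left out, 1 with trended and robust variances, where Reg2 (-6.11, adjusted p = 0.985) no longer passed, and 0 over all probe sets (Coq4 -1.36, adjusted p = 0.0524; Reg2 -6.11, adjusted p = 0.110) and with the pancreas covariate (Coq4 -1.56, adjusted p = 0.136; Reg2 -4.25, adjusted p = 0.568, all from limma). With an array left out, the difference ranged from -1.41 to -1.28 for Coq4 and from -6.81 to -5.63 for Reg2. Replicate numbers are shared by the groups, but deviations of same-numbered KO arrays correlated at -0.067 to 0.0019, and the numbers were not taken as pairs. With the replicate block, 936 genes were raised, 980 lowered and 2 differed between the genotypes.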
